A study of Mus musculus with 2 samples.

Results

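Cd209a dendritic cells of healing mouse skin were taken from 2 single-cell RNA-seq libraries by their transcripts. A cell was a member if it held at least 2 UMIs (unique molecular identifiers, 1 per captured transcript) of Cd209a, a C-type lectin of dendritic cells, and at least 10 UMIs of H2-Aa, an MHC class II chain. Cells with 2 or more UMIs of Cd207 (Langerhans cells), of Xcr1 and Clec9a together (type 1 conventional dendritic cells, cDC1), of Ccr7 (migrating, mature dendritic cells) or of Cd3d, Cd3e and Cd3g together (T cells) were left out. The gate held 251 of 24649 filtered cells, 182 of 11443 in the WT_LW library and 69 of 13206 in the TLR9agonist_LW library. Both groups were wild-type C57BL/6J mice with round full-thickness wounds of 1.8 cm on the back skin, and skin was collected 2 days after the scab came off. According to the labels WT_LW wounds received PBS, although 1 description of this group in the study names a control oligodeoxynucleotide, and TLR9agonist_LW wounds received ODN2395, a CpG oligodeoxynucleotide that activates Toll-like receptor 9, on days 0, 3 and 6. Each group is 1 library made from the pooled skin of several mice, so no test between the groups was possible, and the treatment cannot be told apart from any other difference between the 2 pools or preparations. All values below are therefore descriptions, and every interval is a 95% interval that covers counting error only.

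Type 2 conventional dendritic cells (cDC2) arise from bone marrow precursors that depend on the receptor Flt3 and its ligand. In the skin they lie in the dermis, take up antigen through C-type lectins, load peptides on MHC class II molecules for CD4 T cells and travel to the lymph node once they have switched on Ccr7. Their development relies on the transcription factor Irf4, whereas cDC1 rely on Irf8 and Batf3. Monocytes that enter inflamed skin can take on many of the same features, including MHC class II, Cd209a and Mgl2, and are then hard to distinguish from cDC2 by a few genes. In mice, Toll-like receptor 9 is best known from plasmacytoid dendritic cells and B cells, but myeloid cells can carry it too.

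Depth was similar in both libraries. A member held a median of 11408.5 UMIs and 2798.5 genes in WT_LW and 9496 UMIs and 2312 genes in TLR9agonist_LW, with medians of 2.16% and 1.81% of UMIs on mitochondrial genes, and the gate summed to 2235668 and 843442 UMIs. The libraries shared 47 cell barcodes, of which 1 belonged to a member in WT_LW and none to a member in both. Transcripts of other cell types were present in the members and differed between the libraries. The summed keratinocyte list (16 genes, none at 0 in either library) had a median of 3.80 UMIs per 10000 per member in WT_LW (0.734 to 293) and 18 in TLR9agonist_LW (8.79 to 354). The neutrophil list (9 genes, 1 and 2 of them at 0) had medians of 2.86 (0 to 34.6) and 12.8 (4.67 to 42.2), and the fibroblast list (10 genes, none at 0) had 14.1 (3.28 to 1491) and 25.6 (10.9 to 584). T cells, which should lack keratinocyte transcripts, held 4128 and 8972 CPM (summed UMIs scaled to 1e6) of the keratinocyte list against 604 and 3922 CPM in the gate. The part of such transcripts in the differences below was not tested, and the levels in T cells and fibroblasts are given beside the genes they touch.

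Cd209a dendritic cells made up 1.59% (Clopper-Pearson interval 1.37 to 1.84) of the filtered WT_LW cells and 0.522% (0.407 to 0.661) of the TLR9agonist_LW cells, a log2 ratio of -1.61 (-2.03 to -1.20). Among cells with at least 10 H2-Aa UMIs and few Cd3 UMIs the shares were 10.6% of 1719 and 5.04% of 1369 cells, a log2 ratio of -1.07 (-1.49 to -0.66). Shares of neighbouring populations had log2 ratios of -0.47 (-1.16 to 0.21) for cDC1 and -1.37 (-1.86 to -0.90) for monocytes over all filtered cells. Part of the difference lay in the step on Ccr7. With Cd209a and H2-Aa alone, 294 and 181 cells passed (2.57% and 1.37%), and among them 70 (23.8%, 19.1 to 29.1) in WT_LW and 98 (54.1%, 46.6 to 61.6) in TLR9agonist_LW held at least 2 UMIs of Ccr7, the chemokine receptor that guides dendritic cells to lymph nodes. In fibroblasts, which should lack it and had medians of 12994 and 12914.5 UMIs per cell, 0.268% and 0.354% of cells reached that level. Keeping the Ccr7 cells, an alternative chosen after the values were seen, gave 236 and 140 cells and a log2 ratio of shares of -0.96. A smaller number of such cells and a smaller yield of them from the tissue cannot be told apart.

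The members were chosen by their measured UMIs of the genes of the rule, so the levels of these genes are no finding. Cd209a summed to 821 and 537 CPM over the WT_LW and TLR9agonist_LW members. At least 2 Cd209a UMIs were found in 1 of 3821 T cells of WT_LW and in 0 of 4233 of TLR9agonist_LW, in 0 of 1119 and 0 of 2542 fibroblasts, and in 1.97% and 0.366% of cells with 10 or more UMIs of the C1q genes. Members just inside the threshold, with 2 Cd209a UMIs, numbered 19 and 18 and carried 589 and 269 CPM of Mgl2 and 1908 and 8179 CPM of Il1b. Cells just outside, with 1 Cd209a UMI and otherwise fulfilling the rule, numbered 58 and 25 and carried 538 and 247 CPM of Mgl2 and 1457 and 4161 CPM of Il1b. On H2-Aa the edge was nearly empty, with 1 member at 10 to 12 UMIs and 2 cells at 7 to 9 UMIs, all in WT_LW.

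The label was checked against the markers that the rule did not use. Mgl2, a galactose-binding lectin of dermal dendritic cells, stood at 1389 and 539 CPM in WT_LW and TLR9agonist_LW, and Flt3 at 60.4 and 19.0 CPM against 2.69 and 1.95 in monocytes and 2.19 and 0.597 in C1q macrophages. In cDC1, Flt3 was higher, at 126 and 111 CPM. Zbtb46, a transcription factor of conventional dendritic cells, stood at 17.4 and 11.9 CPM, between cDC1 (34.3 and 42.6) and monocytes (4.48 and 0). Irf4 stood at 55.0 and 22.5 CPM against 5.27 and 1.85 in cDC1, and Irf8 at 60.8 and 23.7 CPM against 968 and 1169. Markers of monocytes and macrophages were present at mixed levels. The high-affinity antibody receptor Fcgr1 was at 29.5 and 13 CPM against 146 and 146 in monocytes. Mrc1, the macrophage mannose receptor, was at 437 and 205 CPM, above monocytes (219 and 105) and below C1q macrophages (649 and 846). Ms4a4c, a membrane protein of the monocyte list, was at 493 and 209 CPM, nearer to monocytes (644 and 445) than to cDC1 (34.3 and 18.5). Ly6c2 was at 49.6 and 49.8 CPM, and since it helped define the monocyte gate its level there is no check. Ccr2, the receptor that brings monocytes into tissue and that some cDC2 also carry, was at 281 and 185 CPM against 450 and 249 in monocytes. In fold terms Flt3 lay nearer to cDC1 than to monocytes in both libraries, and Irf4 stood above both, whereas Ms4a4c lay nearer to monocytes, but these are means over the gate, and the members were not of one kind.

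**Figure D1:**
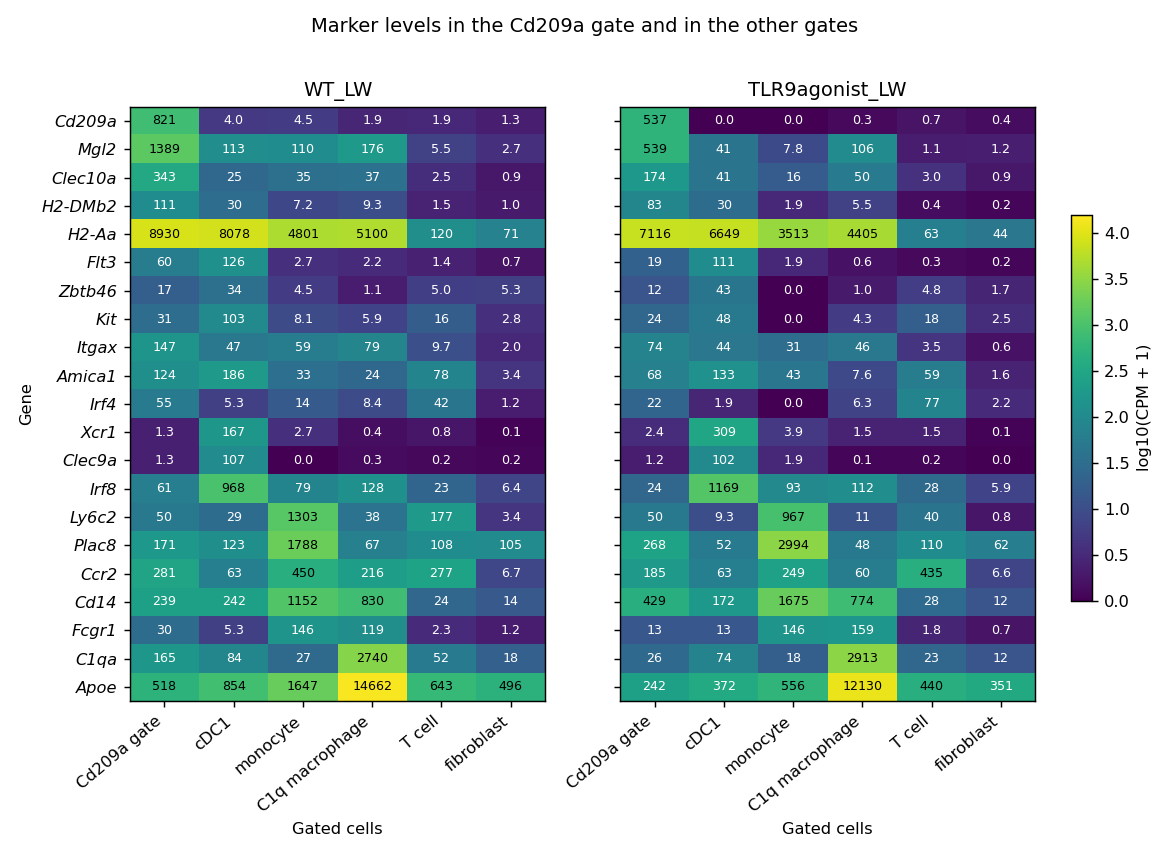
Level of 21 marker genes (rows) in 6 cell gates of each library (columns). Colour shows log10(CPM + 1) and the printed number is the CPM of the summed UMIs. Flt3 and Irf4 in the Cd209a gate lie above the monocyte and C1q macrophage columns, while Fcgr1 lies below them. Xcr1, Clec9a, Ly6c2, C1qa, Cd209a and H2-Aa helped define gates, so their contrasts are set by the gate rules.

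Against the 3 nearest populations, genes at least 2-fold apart in the same direction in both libraries were counted. The gate was higher than cDC1 for 303 of 6796 genes (4.46%) and lower for 191 (2.81%). Higher genes included Mgl2, Ccl17 (a chemokine for CCR4-bearing T cells), S100a4 (a calcium-binding protein, 3936 and 2346 CPM against 227 and 165) and Tnip3 (an inhibitor of NF-kB signalling, 334 and 332 CPM against 13.2 and 7.41). Lower genes included Irf8, Itgae (an integrin chain of cDC1) and Wdfy4, which cDC1 need for cross-presentation. Against monocytes, 181 of 6948 genes were higher (2.61%) and 278 lower (4.0%). Cd7 and Klrd1, surface proteins best known from lymphocytes, stood at 95.7 and 113 CPM and at 201 and 200 CPM in the gate, against 3.58 and 0 and against 8.06 and 7.78 CPM in monocytes. T cells held 30.3 and 20.2 CPM of Cd7 and 105 and 21.1 CPM of Klrd1. Genes lower than in monocytes included Hp (haptoglobin), Plac8, Irf7 and Clec4e (36.2 and 86.6 CPM against 541 and 1144). Against C1q macrophages, 265 of 10786 genes were higher (2.46%) and 713 lower (6.61%), the latter including Apoe, Mertk, Folr2 and Pf4 (34.4 and 20.2 CPM against 1959 and 1763). Of the conventional dendritic list, 6 of 8 counted genes were higher than in monocytes and 4 of 9 were lower than in cDC1. Of the macrophage list, 9 of 12 were lower than in C1q macrophages. Cd209d and Cd209e also led these comparisons, but they lie on chromosome 8 beside Cd209a (3871824 to 3878555 and 3847965 to 3854309 against 3743397 to 3748984, GRCm38) and resemble it, so reads could be shared with a gene of the rule and their values are uncertain.

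The members were a mixture. At least 2 UMIs of Mgl2 were held by 142 of 182 members (78.0%, 71.3 to 83.8) in WT_LW and by 41 of 69 (59.4%, 46.9 to 71.1) in TLR9agonist_LW. After each member was thinned to 2000 UMIs, 68.1% and 46.4% still held Mgl2, against 1.41% and 0.169% of T cells thinned to the same depth. Flt3 was detected in 83 (45.6%) and 13 (18.8%) members before thinning and in 9.89% and 2.90% after it, with 0.53% and 0% of T cells. Members with 10 or more UMIs of C1qa, C1qb and C1qc numbered 14 of 182 (7.69%) and 2 of 69 (2.90%), and members with 2 or more UMIs of the proliferation genes Mki67 and Top2a numbered 30 (16.5%) and 7 (10.1%). In thinned cells no UMI of Il12b or Il23a, which encode subunits of the cytokines IL-12 and IL-23, was found in 182 and 69 members. A count of 0 allows shares of up to 1.65% and 4.35% of members with a UMI at that depth, and before thinning 1 UMI of Il12b was found in WT_LW.

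Members with at least 2 Mgl2 UMIs differed from those with 0 or 1 in other genes in both libraries. This split was made after the values were seen and follows depth in part, since WT_LW members with at least 2 Mgl2 UMIs had a median of 11995.5 UMIs and those with none 8634.5. Of the genes of the alternative lineages, Ly6c2 was at 18.8 CPM in the 142 WT_LW members with Mgl2 and at 180 CPM in the other 40, and at 14.5 and 117 CPM in the 41 and 28 TLR9agonist_LW members. Plac8, carried by monocytes and plasmacytoid cells, was at 84.1 against 540 CPM in WT_LW, a log2 ratio of -2.68, and had a log2 ratio of -2.17 in TLR9agonist_LW. Siglech, a receptor of plasmacytoid dendritic cells and their relatives, was at 3.87 against 91.2 CPM in WT_LW and at 0 against 55.1 CPM in TLR9agonist_LW. Irf8 was lower in the Mgl2 members too, with log2 ratios of -1.83 and -1.51, as was Flt3, with -0.62 and -2.07. Much of the low-Mgl2 signal of Ly6c2, Siglech and Irf8 came from 1 low-Mgl2 cell in each library, the only one with 3 or more Siglech UMIs. Of Plac8 that cell held 23.8% and 12.6% of the low-Mgl2 UMIs, and of Flt3 5.56% and 9.09%. The Flt3 ratios without it were -0.57 (-1.15 to 0.03) and -1.97 (-3.87 to -0.29). The same cell held 50.6% and 52.9% of the Ly6c2 UMIs of the low-Mgl2 members, 79.5% and 87.5% of those of Siglech, and 34 of 62 and 6 of 12 UMIs of Irf8. Without these cells, an alternative chosen after the values were seen, the log2 ratios of Ly6c2 were -2.28 (-2.99 to -1.57) and -1.97 (-3.40 to -0.66), those of Plac8 -2.33 and -2.02, and those of Irf8 -0.71 (-1.36 to -0.03) and -0.55 (-2.27 to 1.25). H2-DMb2, a chain of the peptide-loading H2-M complex, was higher in the Mgl2 members (log2 ratios 1.35 and 1.20), as was Ccl17 (6.31 and 5.70). The TLR9agonist_LW value of Ccl17 rested on 99 UMIs against 1, and 1 cell held 79.0% of the gate's Ccl17 UMIs there. Without the Siglech-high cell of each library, Siglech was at 3.87 against 19.2 CPM in WT_LW, a log2 ratio of -2.31 (upper end -0.65). In TLR9agonist_LW it was at 0 against 7.09 CPM, which gives no ratio. The contrast in Plac8 and Ly6c2 therefore held without these cells in both libraries, and that in Siglech held in WT_LW. Most low-Mgl2 UMIs of Siglech still lay in these cells, and the Irf8 contrast became smaller, with an interval including 0 in TLR9agonist_LW. Lyz2, the lysozyme gene of myeloid cells, had log2 ratios of 0.97 and 0.78.

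**Figure D2:**
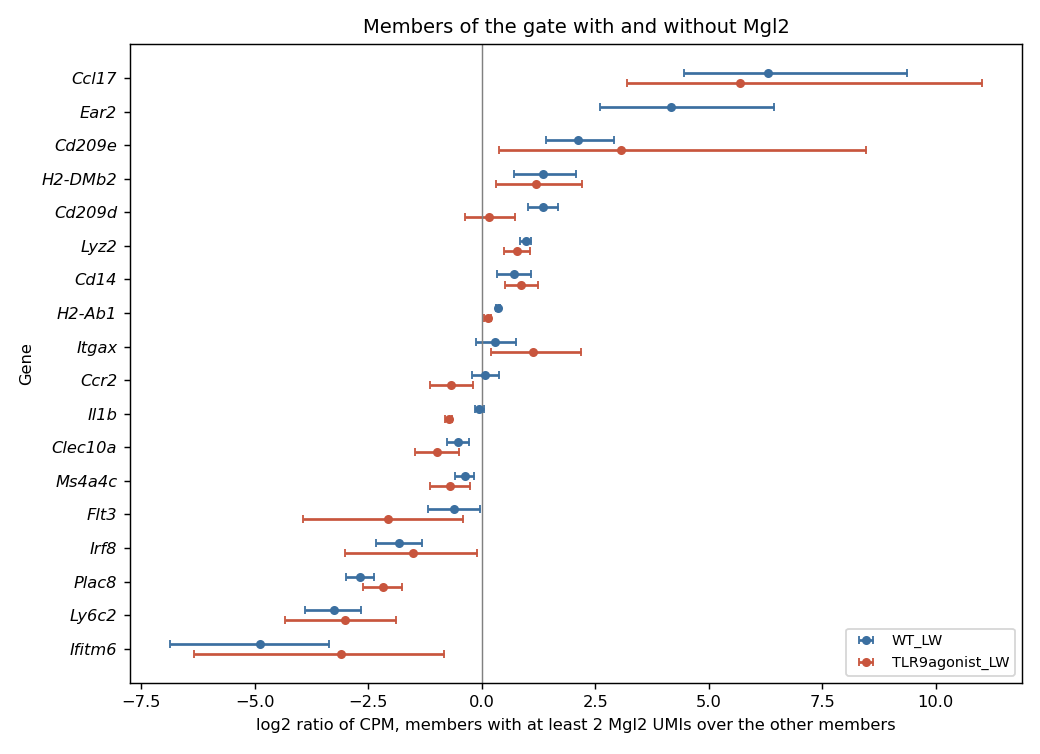
Log2 ratio of the CPM of members with at least 2 Mgl2 UMIs over that of the other members, for each library (142 over 40 cells in WT_LW, 41 over 28 in TLR9agonist_LW), with 95% counting intervals. Ratios that need a count in a group at 0 are not drawn. Ccl17 lies far to the right and Ly6c2, Plac8 and Irf8 to the left in both libraries, with 1 cell holding 50.6% and 52.9% of the low-Mgl2 UMIs of Ly6c2.

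Between the libraries, 5666 genes outside the rule had at least 50 UMIs over the gate. Of these, 198 (3.49%) were at least 2-fold higher in TLR9agonist_LW and 628 (11.1%) at least 2-fold lower. The median gene had a log2 ratio, TLR9agonist_LW over WT_LW, of -0.29, and taken relative to it 334 genes were at least 2-fold higher and 288 lower. Median ratios of -0.32 in T cells, -0.38 in fibroblasts and -0.25 in monocytes show that a shift of about this size was not particular to the gate. It was smaller in C1q macrophages (-0.16) and cDC1 (-0.09). Ratios below are given as measured, to be read against the median gene. Counts within lists are to be read against the 3.49% higher and 11.1% lower of all counted genes.

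The lectins by which these cells are recognised were lower in TLR9agonist_LW. Mgl2 had a median of 9.23 UMIs per 10000 (0 to 62.6) in the 182 WT_LW members and 2.66 (0 to 35.9) in the 69 TLR9agonist_LW members, a log2 ratio of -1.36 (-1.51 to -1.22). Mgl2 was also lower in monocytes (110 and 7.78 CPM), cDC1 (113 and 40.7 CPM) and C1q macrophages (176 and 106 CPM). T cells had 5.46 and 1.07 CPM of Mgl2 and fibroblasts 2.72 and 1.24 CPM, so the lower Mgl2 was not particular to the gate. Clec10a, its neighbour on chromosome 11 and a close relative with which reads could be shared, was at 343 and 174 CPM (-0.98). The cells of the libraries overlapped for both genes, and low cells were found in each. Flt3 counted 135 UMIs in WT_LW and 16 in TLR9agonist_LW (-1.67). Cd209d was at 460 and 160 CPM (-1.52) and Cd209e at 147 and 20.2 CPM (-2.86), with the reservation on shared reads above. H2-DMb2 was at 111 and 83.0 CPM (-0.42, -0.82 to -0.03), a ratio close to that of the median gene. Of 14 counted genes of the lectin and receptor list, 4 were at least 2-fold lower (Mgl2, Clec4a2, Clec12a and Cd33, the last 43.8 and 7.11 CPM) and 2 higher, with a median of -0.85. The higher pair were Clec4d (47.9 and 114 CPM) and Clec4e (36.2 and 86.6 CPM), which sense mycobacterial and damage-derived ligands. The ratio of Clec4e was -1.57 when the rule's thresholds were set per 10000 UMIs. Of the conventional dendritic list, 2 of 7 were lower (Flt3 and Ciita) and none higher, with a median of -0.87.

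**Figure D3:**
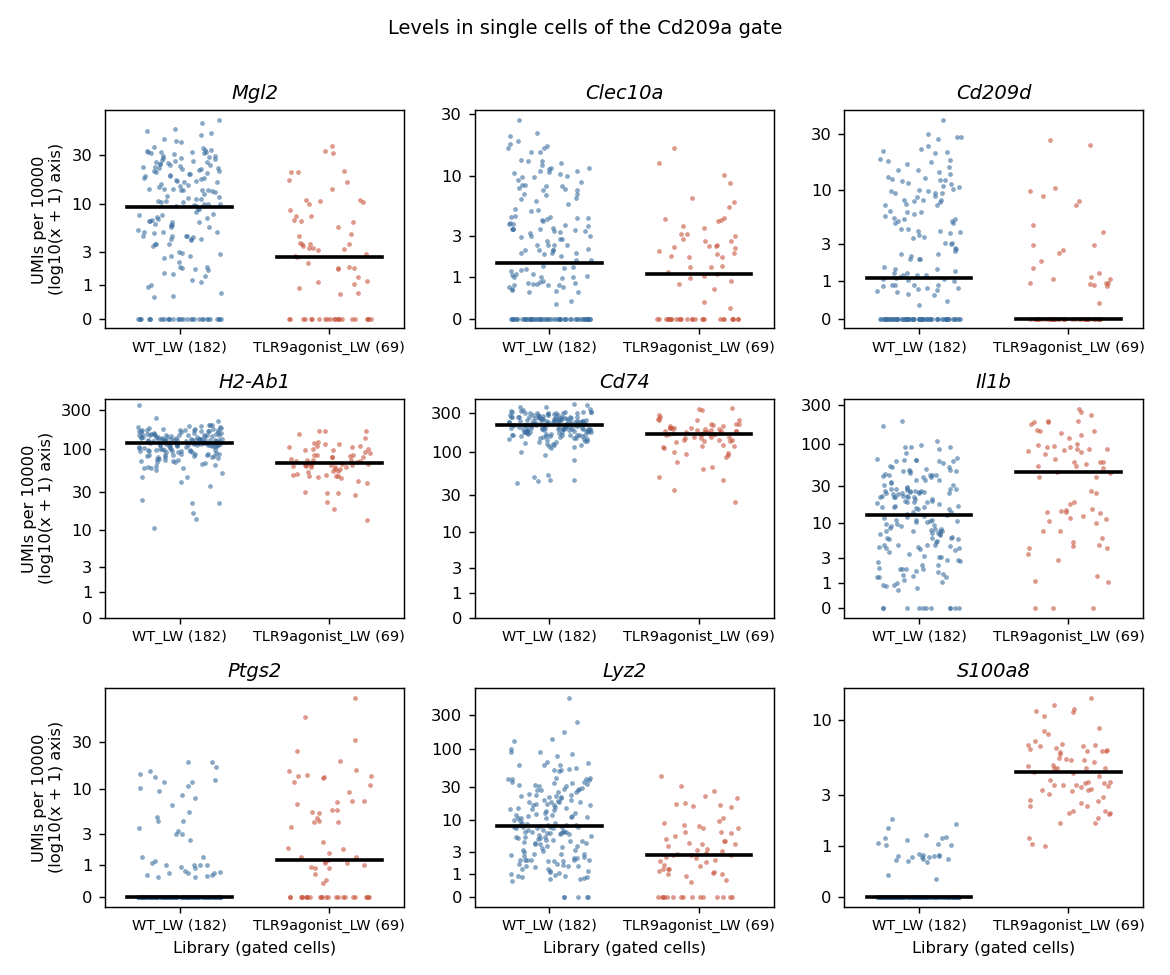
Level of 9 genes in each member of the gate, as UMIs per 10000 on a log10(x + 1) axis, with 182 WT_LW and 69 TLR9agonist_LW points and the median as a black line. The median of Mgl2 is 9.23 in WT_LW and 2.66 in TLR9agonist_LW, and that of Il1b is 12.7 and 45.6, while the points of both libraries overlap.

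MHC class II genes were lower as a group. All 9 counted genes of the list had ratios below that of the median gene and 3 were at least 2-fold lower, with a list median of -0.78. H2-Ab1, the beta chain of I-A, was found in every member, with a median of 120 UMIs per 10000 (10.7 to 337) in WT_LW and 67.7 (13.5 to 168) in TLR9agonist_LW, a log2 ratio of -0.78. Cd74, the invariant chain, had medians of 217 (42.1 to 389) and 170 (24.1 to 348) and a ratio of -0.46, and H2-Eb1 had -0.43. H2-DMa, the partner of H2-DMb2 in peptide loading, was at 1056 and 483 CPM (-1.13). Ciita, the master activator of MHC class II transcription, was at 73.8 and 20.2 CPM (-1.87). Its ratio was -1.12 in C1q macrophages, while cDC1 had 56.6 and 66.7 CPM (0.24). The rule itself demanded 10 H2-Aa UMIs, so cells with the least MHC class II could not enter. Of 18 genes of the MHC class I list, 4 were lower (Tap1 and Tap2, which form the peptide transporter, the trimming enzyme Erap1 and the activator Nlrc5) and none higher, with a median of -0.56.

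Of 17 counted genes of antigen uptake and processing, 4 were at least 2-fold lower and 1 higher, with a median of -0.43. Fcgr3 and Fcgr2b, receptors for immunoglobulin G, had ratios of -1.56 and -1.14, the lysosomal protease Ctss -1.04, and Axl, a receptor for dying cells, -2.48. The exception was Lgmn, the lysosomal protease legumain (1.05). In other gates Fcgr3 had ratios of -1.49 (T cells), -1.17 (fibroblasts) and -0.65 (C1q macrophages). Genes of monocytes and macrophages were lower as well. Of the monocyte list, 5 of 14 were lower and none higher (median -0.70). Csf1r, the receptor for colony stimulating factor 1, was at 186 and 71.1 CPM (-1.38), and Lyz2 at 2566 and 682 CPM (-1.91), with 26.3% of the WT_LW Lyz2 UMIs in 1 cell. Ratios of Csf1r and Lyz2 were -1.36 and -1.82 in T cells, -0.17 and -1.15 in fibroblasts, and -0.41 and -0.49 in C1q macrophages. Of the macrophage list, 7 of 12 were lower and none higher (median -1.10), led by the complement genes C1qc (91.7 and 11.9 CPM), C1qa (165 and 26.1 CPM) and C1qb (221 and 52.2 CPM). WT_LW held 14 members with 10 or more C1q UMIs and TLR9agonist_LW held 2, and with those members left out the list median was -0.37 and C1qb had a ratio of 0.05.

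Of 21 transcription factors of dendritic cells, 4 were lower and 2 higher, and the list median of -0.07 lies above the median gene. Irf4 stood at 55.0 and 22.5 CPM (-1.29), where T cells had 41.5 and 77.2 CPM. Irf8 (-1.36) and Batf3 (-1.33), factors of cDC1, and Cebpa (-1.18), a myeloid factor, were also lower, although Irf8 had a ratio of 0.36 with thresholds per 10000 UMIs. Prdm1, the repressor Blimp-1, was at 24.6 and 90.1 CPM (1.87) and was detected in 36 of 182 and 28 of 69 members. Nfil3 was at 95.3 and 200 CPM (1.07), with a similar step in T cells (82.4 and 162 CPM). Klf4 (-0.13) and Zeb2 (-0.14), which cDC2 and monocytes use, were close to the median gene. Zbtb18, a transcriptional repressor, and Ahr, the aryl hydrocarbon receptor, were higher (56.8 and 134 CPM, and 112 and 237 CPM).

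Toll-like receptor 9 itself was hardly captured. Tlr9 had 2 UMIs in each library, in 2 of 182 and 2 of 69 members, too few for a comparison at this depth. Tlr7 had 5 and 3 UMIs. Of 17 counted genes of Toll-like receptors and their adaptors, 2 were lower (Myd88, the shared adaptor, -1.32, and the kinase Irak4, -1.23) and none higher, with a median of -0.53. These counts are near the shares over all counted genes, 11.1% lower and 3.49% higher, so they set this list apart in no way. Genes of NF-kB and its inhibitors had a higher median, 0.34, with 19 of 21 above the median gene but none at least 2-fold higher. Nfkbia, the inhibitor that NF-kB induces, had a ratio of 0.84 and Rel 0.83, while Nfkbid had -1.59.

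Cytokine genes differed in both directions, and Il1b, which encodes interleukin-1 beta, was the most abundant. It reached 2173 CPM in the control gate and 6029 CPM in TLR9agonist_LW, a log2 ratio of 1.47 (1.41 to 1.53), with per-cell medians of 12.7 (0 to 194) and 45.6 (0 to 270) UMIs per 10000. Nearly all members held it in both libraries, 171 of 182 and 66 of 69, and after thinning 75.3% (68.3 to 81.4) and 88.4% (78.4 to 94.9) did. Monocytes had 2395 and 6884 CPM, a ratio of 1.52, so this step was not particular to the gate. C1q macrophages had 1288 and 1255 CPM (-0.04), and cDC1 had a ratio of -0.44. T cells stood at 44.5 and 94.7 CPM and fibroblasts at 23 and 33 CPM, far below the gate. Il1rn, the antagonist of the same receptor, was at 99.7 and 257 CPM (1.37), detected in 53 and 33 members. Its ratio was 1.16 in T cells, 1.47 in fibroblasts, 0.81 in monocytes, 0.61 in C1q macrophages and 0.71 in cDC1. Tnf differed the other way, at 85.9 and 14.2 CPM (-2.59, -3.57 to -1.76), in 73 of 182 and 10 of 69 members. In T cells Tnf stood at 58.9 and 66.5 CPM and in C1q macrophages at 266 and 179 CPM. Inhba, a subunit of activin A, was at 21.9 and 60.5 CPM (1.46), but at a ratio of -0.42 with thresholds per 10000 UMIs. Il6 had 14 and 119 UMIs, 56.3% of the latter in 1 cell, and it was also higher in T cells (15.3 and 104 CPM) and fibroblasts (44.9 and 243 CPM). After thinning, 0% and 11.6% (5.14 to 21.6) of members held it, against 1.59% and 6.95% of T cells, 1.37% and 7.18% of C1q macrophages and 4.73% and 18.5% of fibroblasts, which express the gene themselves. Il10 had 11 and 0 UMIs, where a count of 0 allows up to 3.56 CPM.

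Ptgs2, the inducible cyclooxygenase that makes prostaglandin precursors, stood at 158 and 705 CPM (2.16, 1.97 to 2.35) and was detected in 24.2% and 65.2% of members. It was higher in T cells too (52.6 and 197 CPM) and in C1q macrophages (282 and 563 CPM). The other counted genes of the prostaglandin and leukotriene list all had ratios below 0, and the median over 8 was -0.55. Of the EGF-receptor ligands, Areg (amphiregulin) was at 97.5 and 707 CPM (2.86) and Nrg1 at 16.1 and 47.4 CPM (1.56). Areg was detected in 22 members of each library, with 36.1% of the TLR9agonist_LW UMIs in 1 cell. T cells, which make Areg themselves, held far more, 231 and 2317 CPM. After thinning, 4.95% and 20.3% (11.6 to 31.7) of members held Areg, against 12.2% and 43.1% of T cells, 1.93% and 10.5% of fibroblasts and 3.77% and 9.52% of C1q macrophages.

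Chemokines showed a similar mixture. Of 16 counted, 7 were at least 2-fold higher and 3 lower, with a median of 0.57. Cxcl2, a neutrophil attractant, was at 1735 and 5270 CPM (1.60) and was detected in 128 of 182 and 62 of 69 members. In T cells it stood at 390 and 2436 CPM and in fibroblasts at 644 and 1835 CPM. Cxcl1 (132 and 664 CPM), Ccl2 (271 and 811 CPM) and Ccl7 (40.7 and 247 CPM) were higher in the TLR9agonist_LW gate, and all stood above the gate in fibroblasts, at 1292 and 2300, 977 and 2817, and 456 and 1036 CPM. Leaving out members with 50 or more UMIs of another cell type's list, an alternative chosen after the values were seen, left 172 and 60 members. It gave Ccl2 a ratio of -0.57 and moved the list median to -0.57, so the higher chemokine median was not seen without those members. The gene minimum was applied again to the smaller sums, so the genes behind that median can differ. In TLR9agonist_LW 1 cell held 52.3% of the Cxcl10 UMIs, and 1 cell held 76.1% of those of Ccl22, which had a ratio of -0.02 without the top cell of each library. Ccl17, whose UMIs lay almost all in the Mgl2 members, was at 301 and 119 CPM (-1.35). It was detected in 38 of 182 and 7 of 69 members, and 79.0% of the TLR9agonist_LW UMIs came from 1 cell. Thinned members held it in 12.1% and 1.45% of cases. Ccl24, an eosinophil attractant, had 30 UMIs in 6 WT_LW members and 0 in TLR9agonist_LW.

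**Figure D4:**
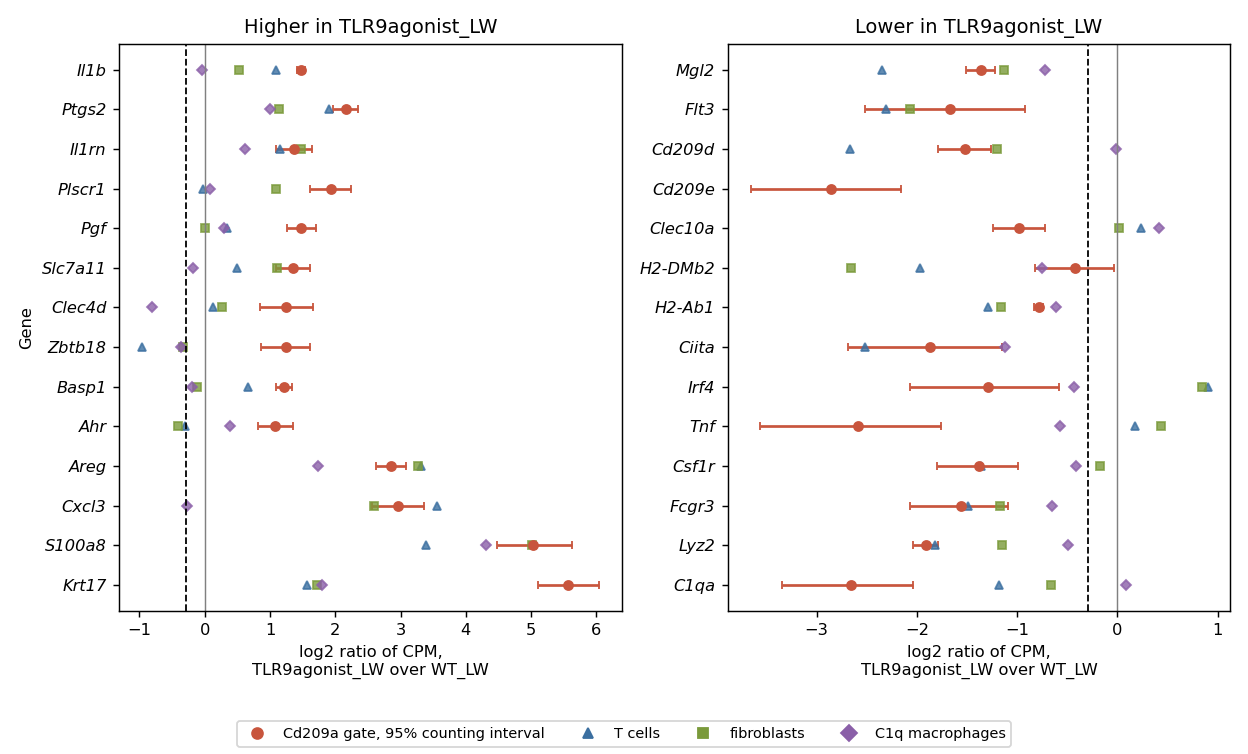
Log2 ratio of TLR9agonist_LW over WT_LW for 28 genes in the gate, with 95% counting intervals, beside the ratios of the same genes in T cells, fibroblasts and C1q macrophages. The Il1b ratio is 1.47 in the gate, 1.09 in T cells and -0.04 in C1q macrophages. In monocytes, which are not drawn, it is 1.52. S100a8, Areg and Cxcl3 have high ratios in T cells as well, and 90.2% of the Krt17 UMIs of TLR9agonist_LW came from 1 cell.

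Interferon genes were lower or close to the median gene. Of 20 counted type I interferon genes, 7 were lower and 2 higher, with a median of -0.28, equal to the median gene within 0.01. The higher pair rested on few cells, since Oasl1 had 5 and 73 UMIs in 5 members each and 46.6% of the Isg15 UMIs of TLR9agonist_LW were in 1 cell. Of the interferon gamma list, 6 of 13 were lower and 1 higher, with a median of -0.92. Cxcl9 (-1.87) and Tap1 (-1.66) were among the lower ones, with 57.9% of the WT_LW Cxcl9 UMIs in 1 cell.

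Costimulatory genes were mixed in the members that remained after the Ccr7 step. That step left out mature cells unequally, 23.8% of cells passing on Cd209a and H2-Aa in WT_LW and 54.1% in TLR9agonist_LW. Of 16 counted, 2 were higher and 4 lower. Cd80 (1.30), a ligand of CD28, and Pdcd1lg2 (1.10), the checkpoint ligand PD-L2, were higher, Cd86 (0.27) was within 2-fold, Cd40 had a ratio of -0.88, and Cd200r1, an inhibitory receptor, had -1.65. Of the heat shock and dissociation list, 5 of 16 were higher, with a median of 0.64. Hspa1b, an inducible heat shock protein, stood at 1227 and 3559 CPM in the gate, at 979 and 3351 CPM in T cells and at 876 and 3229 CPM in fibroblasts, so this step was shared by cells of other types. The immediate early gene Atf3 was lower (1417 and 595 CPM) where T cells had 231 and 265 CPM. Metabolic genes of glycolysis and hypoxia had a median of 0.20, with Hk2 (73.8 and 149 CPM) and the lactate exporter Slc16a3 (40.3 and 111 CPM) at least 2-fold higher. Cell cycle genes had a median of -0.25, close to the median gene.

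**Figure D5:**
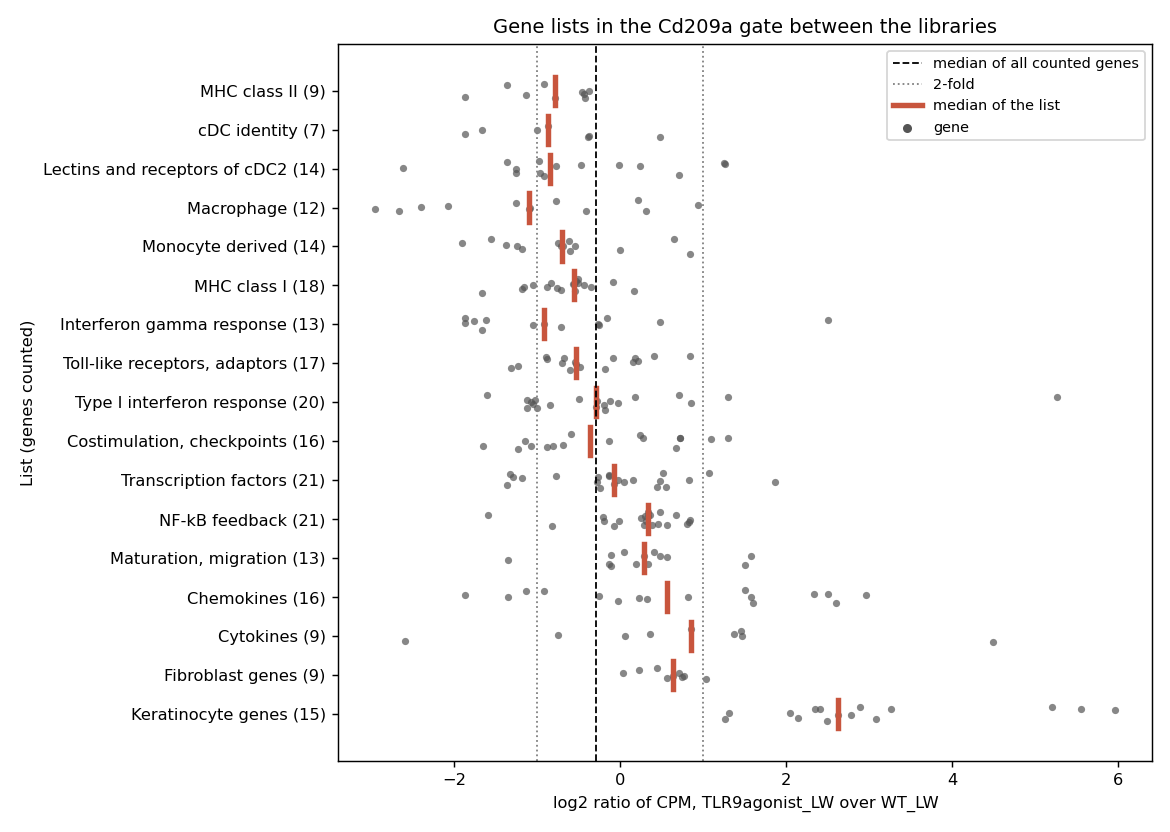
Log2 ratio of TLR9agonist_LW over WT_LW for each counted gene of 17 gene lists in the gate, with the list median in red and the median of all 5666 genes (-0.29) dashed. The MHC class II points all lie below the dashed line, and 19 of 21 NF-kB points lie above it.

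The genes with the highest ratios were largely those of other cell types. The 12 highest were Krt17, Krt79, Defb6, S100a8, S100a9, Hist1h2bc, Cst6, Stfa1, Lgals7, Krtdap, Cxcl3 and Areg, most of them genes of keratinocytes or neutrophils. Of the keratinocyte list 15 of 15 counted genes were at least 2-fold higher. Single cells held 98.2% of the TLR9agonist_LW UMIs of Krt79, 94.6% of Defb6 and 92.6% of Cst6, and with that cell left out Krt79 had a ratio of -0.29. S100a8, a neutrophil protein, was spread evenly instead. It was found in 28 of 182 WT_LW members (median 0, 0 to 1.85 UMIs per 10000) and in 69 of 69 TLR9agonist_LW members (median 4.42, 0.990 to 13.8), and T cells held 155 and 1619 CPM against 13 and 423 CPM in the gate. The lowest ratios belonged to C1qc, Cd209e, C1qa, Tnf, C1qb, Ear2, Lyz2, Tppp3, Rab7b, Pdlim1, Prdx4 and Cbfa2t3. Tppp3 was lower in fibroblasts too (303 and 45.3 CPM), as was Cbfa2t3, a transcriptional corepressor (22.3 and 4.33 CPM), which stood at 125 and 37.9 CPM in the gate.

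To see genes that these cells carried well above T cells and fibroblasts, 149 genes at least 4-fold above both were taken. The rule was chosen after the values were seen and asked for this only in the library where the gate was higher. Of the 149 genes, 13 were at least 2-fold higher and 28 lower, with a median ratio of -0.47. These counts depend on that selection. The higher genes included Krt79 and Hist1h2bc, of which 1 cell held 98.2% and 65.1% of the TLR9agonist_LW UMIs. Besides Il1b, Il1rn, Clec4d, Zbtb18 and Ahr, the higher ones included Plscr1, a phospholipid scramblase (64.0 and 243 CPM, 1.93), Pgf, placental growth factor (144 and 403 CPM, 1.48), Slc7a11, the cystine transporter (107 and 274 CPM, 1.36), and Basp1 (492 and 1142 CPM, 1.21). The lower ones included Mgl2, Csf1r, Fcgr3 (144 and 48.6 CPM), Ms4a6d (346 and 129 CPM, -1.42), the amidase Naaa (341 and 130 CPM, -1.39) and Ear2, a ribonuclease with close relatives between which reads could be split (103 and 27.3 CPM, -1.92). The genes of this set were ranked by the same ratio that is reported for them, so their directions are no separate result.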

How the data were processed

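Droplet-based 3′ single-cell RNA-seq was run on 1 library per group. The skin was separated by enzymes into epidermis and dermis, dissociated, and recombined after removal of dead cells. The authors deposited UMI counts per gene and cell as unnormalized matrices written by Cell Ranger 4.0.0 (matrix header), with 12800 and 13751 cells. The submitters' processing notes also list fastp, Seurat and mm9. Gene positions were taken from GENCODE M21 (GRCm38) by Ensembl identifier (27645 of 27998 matched). Since the build named in the notes differs, they are given for orientation only.

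Cells under 500 UMIs, under 300 genes or over 15% mitochondrial UMIs were dropped. No doublets were removed in the reported values, and simulated-doublet scores served as an alternative. Members and gene lists were chosen with earlier results of these data known. UMIs were summed over members and divided by the gate's total (CPM, Poisson intervals), and log2 ratios were taken for genes with at least 50 UMIs, with exact conditional intervals. With 1 library per group no p-value was computed, and 2-fold is a rule of size. Genes were named by rule: the 12 highest and 12 lowest ratios among genes with at least 200 UMIs in all and 10 per library, without mitochondrial, ribosomal and unnamed genes, the members of the lists, and 8 genes in each direction against each neighbouring gate. Other genes named were picked after their values were seen.

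The neighbouring gates all had fewer than 2 UMIs of Cd209a, Ccr7 and the Cd3 genes. cDC1 had at least 2 UMIs of Xcr1 and Clec9a and 10 of H2-Aa. Monocytes had at least 2 of Ly6c2, 10 of Lyz2 and 1 of Csf1r, and fewer than 10 of the C1q genes. C1q macrophages had at least 10 of the C1q genes. T cells had at least 2 UMIs of the Cd3 genes, and fibroblasts at least 50 of Col1a1 and Col1a2 and no Ptprc, both with fewer than 10 of H2-Aa. Ratios between gates used a pseudocount of 0.5, and thinning drew 2000 UMIs per cell from all members and from 600 cells of each comparison gate, where shallower cells were left out. Clec6a, Clec7a, Mx2, Ifi209, Ifi211 and Cxcl11 were not analysed here, and some genes are not reported here. The scripts, tested on simulated data, ran in Python 3.11.15 with pandas 2.3.3, matplotlib 3.10.9, numpy 2.4.6, scikit-learn 1.9.0 and scipy 1.17.1.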

Additional observations from a re-analysis of the deposited data

How the results depend on the processing

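With 1 library per group, no library could be left out, and no estimate of the spread between mice exists. No paired analysis was possible because each group has 1 library. The log2 ratio of shares stayed between -1.88 and -1.53 under other cell filters, other Cd209a or H2-Aa minimums, thresholds per 10000 UMIs and removal of doublet-like, C1q-high or mixed cells, and was -0.96 with the Ccr7 cells kept. That alternative, the removal of Siglech-high cells from the Mgl2 split, the removal of cells with 50 UMIs of another type's list and the removal of each gene's top cell were chosen after seeing the data. The planned removal of cells with 5 such UMIs left 0 and 0 members and gave no value. In place of 198 higher and 628 lower genes, counts relative to the median gene gave 334 and 288, a gene minimum of 10 UMIs gave 587 and 1802, and a minimum of 200 UMIs gave 83 and 105. The share of WT_LW members with 2 or more Mgl2 UMIs was 70.8% with at least 1 Cd209a UMI and 69.3% with thresholds per 10000 UMIs. The C1q-high share of TLR9agonist_LW was 0% with at least 3 Cd209a UMIs and 0% per 10000. With the 50-UMI rule, 429 genes were lower than in monocytes and 1340 lower than in C1q macrophages. Of 923 ratios recomputed for 71 named genes, 908 kept their direction, and of 447 list medians 417 did. The ratios that reversed across a 2-fold call were Ccl22 (-0.31 with at least 3 Cd209a UMIs and -0.02 without the top cell), Krt79 (-2.81 per 10000, -0.45 without doublet-like cells, -0.63 under the 50-UMI rule and -0.29 without the top cell), Cst6 (-0.62 per 10000 and -0.21 under the 50-UMI rule), Ccl2 (-0.11 without doublet-like cells and -0.57 under the 50-UMI rule), Irf8 (0.36), Clec4e (-1.57) and Inhba (-0.42) per 10000, and C1qb (0.05 without C1q-high members). The cause was not tested, apart from genes whose top cell held most of the UMIs. Il1b stayed between 1.31 and 1.76, Mgl2 between -1.48 and -0.94, Tnf between -2.68 and -1.88, and H2-Ab1 between -0.83 and -0.50 under all alternatives run for them. With 69 members in TLR9agonist_LW, genes of few UMIs such as Tlr9 could not be compared.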

Other observations

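Receptors for chemokines and cytokines stood close to the median gene in the Cd209a dendritic cells. Of 24 counted genes of that list none was at least 2-fold higher in TLR9agonist_LW and 2 were lower, Csf1r and Il6ra (84.1 and 39.1 CPM), with a median log2 ratio of -0.28. Over all counted genes 3.49% were higher and 11.1% lower. Il1r2, the decoy receptor for interleukin-1, was at 451 and 427 CPM (-0.08) and Cxcr4 at 318 and 390 CPM (0.30), whereas Ccr1 had a ratio of -0.93 and Ccr2 -0.61. After thinning to 2000 UMIs, Ccr2 was held by 35.2% (28.2 to 42.6) of WT_LW members, close to the 37.8% (33.8 to 41.9) of T cells. In TLR9agonist_LW it was held by 20.3% (11.6 to 31.7) of members, below the 51.7% (47.6 to 55.8) of T cells.

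Genes linked to type 2 responses split in both directions, with 2 of 12 counted genes higher (Ccl22 and Pdcd1lg2), 4 lower (Ccl17, Mgl2, Irf4 and Mrc1) and a median of -0.35. Most of the Ccl22 UMIs of TLR9agonist_LW came from 1 cell, as described above. Of the maturation list, Il4i1, an amino acid oxidase of activated dendritic cells, was at 10.7 and 32.0 CPM (1.58) and Cd83 at 644 and 585 CPM (-0.14). Both values cover only the members that remained after the unequal Ccr7 step. Among cytokines that were within 2-fold, Osm (oncostatin M) stood at 163 and 210 CPM (0.36) and Tgfb1 at 155 and 92.5 CPM (-0.75). Csf2, which encodes GM-CSF, had 0 UMIs in WT_LW and 8 UMIs in 3 members of TLR9agonist_LW.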
